A study of Mus musculus with 12 samples.

Results

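The ion channel genes that set the electrical behaviour of the islet were examined in RNA sequencing of mouse pancreatic islets. They comprise every gene of the full count table whose symbol belongs to the potassium channel (Kcn), calcium channel (Cacn) or sodium channel (Scn) families, together with Abcc8, Abcc9 and Trpm5, at a total of 100 or more counts over the 12 libraries. Of 55536 genes in the table, 139 symbols fitted and 109 reached the minimum. The nearest genes outside it were Kcnv2 with 95 counts and Kcnj9 with 69, and the nearest inside were Scn11a with 115 and Kcnj14 with 127. The 109 genes comprise 4 subunits of ATP-sensitive potassium (KATP) channels, 9 calcium channel alpha1 subunits and 14 calcium channel auxiliary subunits, 8 sodium channel alpha and 3 beta subunits, 31 voltage-gated potassium channel alpha subunits with 9 auxiliary subunits, 11 calcium- and sodium-activated potassium channel genes, 9 2-pore-domain potassium channels, 9 other inward rectifiers, Trpm5 and the noncoding RNA Kcnq1ot1.

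In pancreatic beta cells, metabolism of glucose closes KATP channels, the membrane depolarises, and voltage-gated calcium channels open and trigger insulin release. Voltage-gated and calcium-activated potassium channels end each action potential, while 2-pore-domain channels carry a background potassium current. Alpha, delta, endothelial and mural cells of the islet use partly different members of the same families.

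Libraries came from islets labelled bKO for Ptpn2 (titles PTPN2 -/-), a gene for a tyrosine phosphatase that dampens cytokine signalling, and from control islets (genotype label fl/fl, titles PTPN2 +/+). Each genotype was sampled after 24 h with a mix of IL-1beta, TNF-alpha and IFN-gamma (cytokines) and without treatment, which gives 4 groups of 3 libraries. All mice were 16 weeks old and on a mixed C57BL/6J background, and 3 mice of each genotype gave islets. The sources used here give neither the driver of the deletion nor which libraries share a mouse, so the p-values measure the spread between these libraries.

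The libraries held 47064061 to 107515565 counts. Levels are given as CPM, counts scaled by effective library size (TMM). Ptpn2 RNA was not lower in the libraries labelled bKO: it stood at 110.5, 84.2 and 107.1 CPM in bKO-labelled and at 88.9, 90.4 and 78.3 CPM in control islets with cytokines, and at 36.7, 33.8 and 35.5 CPM in bKO-labelled and 30.3, 31.5 and 31.4 CPM in control islets without. The log2 difference was 0.23 ± 0.10 (SE; adjusted p = 0.26, edgeR) with and 0.19 ± 0.10 (adjusted p = 0.989) without cytokines, where the 3 bKO-labelled libraries lay above the 3 controls. A count over the whole gene can miss the loss of single exons, and the sources used here do not name the deleted exons, so the genotype is named by its label throughout. Cytokine-treated bKO-labelled replicate 2 stood apart from the other libraries, with 8.15% of its counts in Ins1 and Ins2, against 12.2% to 14.9% in the other 11, and its part in a result is given beside several of the results below.

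The channel genes most abundant per length were led by a potassium background channel and the KATP complex. In untreated control islets, Kcnk16, an islet-enriched 2-pore-domain channel, averaged 91.5 CPM per kilobase of exons (84.4 to 95.7, n = 3) and Abcc8, the sulfonylurea receptor of the beta-cell KATP channel, 86.6 (79.9 to 91.6). These ranges overlapped. Kcnj11, the pore of that channel, followed at 28.9, then Cacnb3, a cytoplasmic calcium channel beta subunit, at 25.6, and each of these was separate from its neighbours in the order. The ERG-type potassium channels Kcnh2 at 21.6 and Kcnh6 at 20.5 overlapped with each other, as did Kcnk1 at 16.9 and Kcnmb2 at 16.7. Among calcium channel pores, Cacna1d reached 9.66 and Cacna1a 7.55 CPM per kilobase. With cytokines, the order changed: Kcnk16 ranked 5 of the 109 genes in bKO-labelled and 6 in control islets, at 11.6 and 10.5 CPM per kilobase, and Abcc8 was the highest in both.

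**Figure D1:**
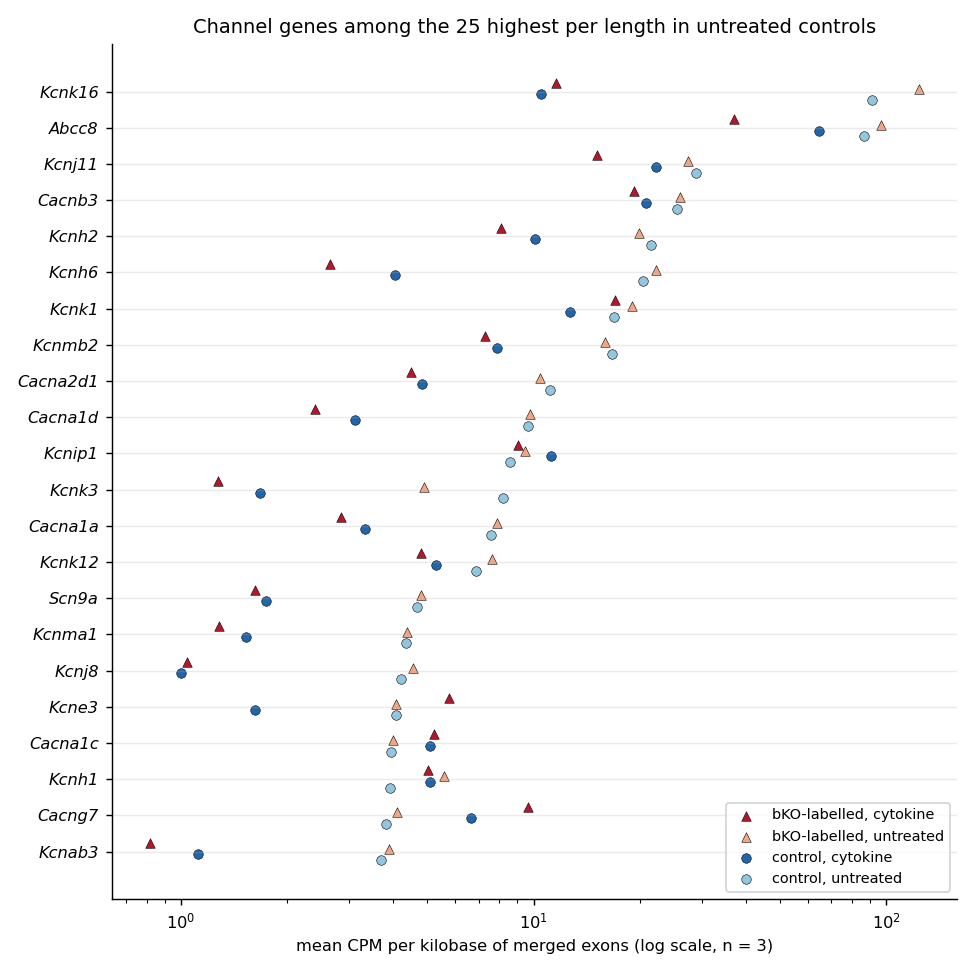
Mean CPM per kilobase of merged exons (log scale, n = 3 libraries) of channel genes among the 25 highest in untreated control islets, for the 4 groups. Most points with cytokines (dark) lie left of those without (light): Kcnk16 stood at 11.6 with cytokines against 124 without in bKO-labelled islets, while Cacna1c and Cacng7 lie to the right in both genotypes.

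Cytokine treatment lowered most of the channel genes in both genotypes. In bKO-labelled islets, 63 of the 109 genes fell and 15 rose past an adjusted p of 0.05, where 33.6% of all 19800 genes tested fell and 28.8% rose (62.4% called in all); the members' shares were 57.8% and 13.8%. In control islets, 60 fell and 10 rose, or 55.0% and 9.17%, against 33.9% and 26.8% of all genes (60.6% called in all). The median log2 fold change of the channel genes was -0.87 in bKO-labelled and -0.75 in control islets, and that of all genes was -0.06 and -0.10. Both genotypes shared 53 lowered genes, which is 84.1% of those lowered in bKO-labelled and 88.3% of those lowered in control islets. They shared 8 raised genes, 53.3% and 80.0% of the raised, and no channel gene passed the test in opposite directions. The overlap between genotypes over all genes was not worked out. These overlap shares are thus not shown to be particular to channel genes. Shares called within a role, given below, stand beside these 62.4% and 60.6% of all genes.

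Summed over all members, channel RNA stood at 1472, 1161 and 1382 CPM in bKO-labelled islets with cytokines, against 2861, 2962 and 2839 CPM without. In control islets the sums were 1453, 1739 and 1685 CPM with and 2839, 2745 and 2590 CPM without cytokines. The groups did not overlap in either genotype, and the treated means were 46.3% of the untreated mean in bKO-labelled and 59.7% in control islets. Without Abcc8, the values were 49.4% and 54.5%. Scaling moved these counts: with library totals in place of TMM, which shifts the median of all genes to -0.29 in bKO-labelled and -0.33 in control islets, 20.2% of all genes rose and 43.9% fell in bKO-labelled islets and 18.9% rose and 45.4% fell in control islets, and the members split into 8 raised and 71 lowered and into 6 raised and 71 lowered.

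**Figure D2:**
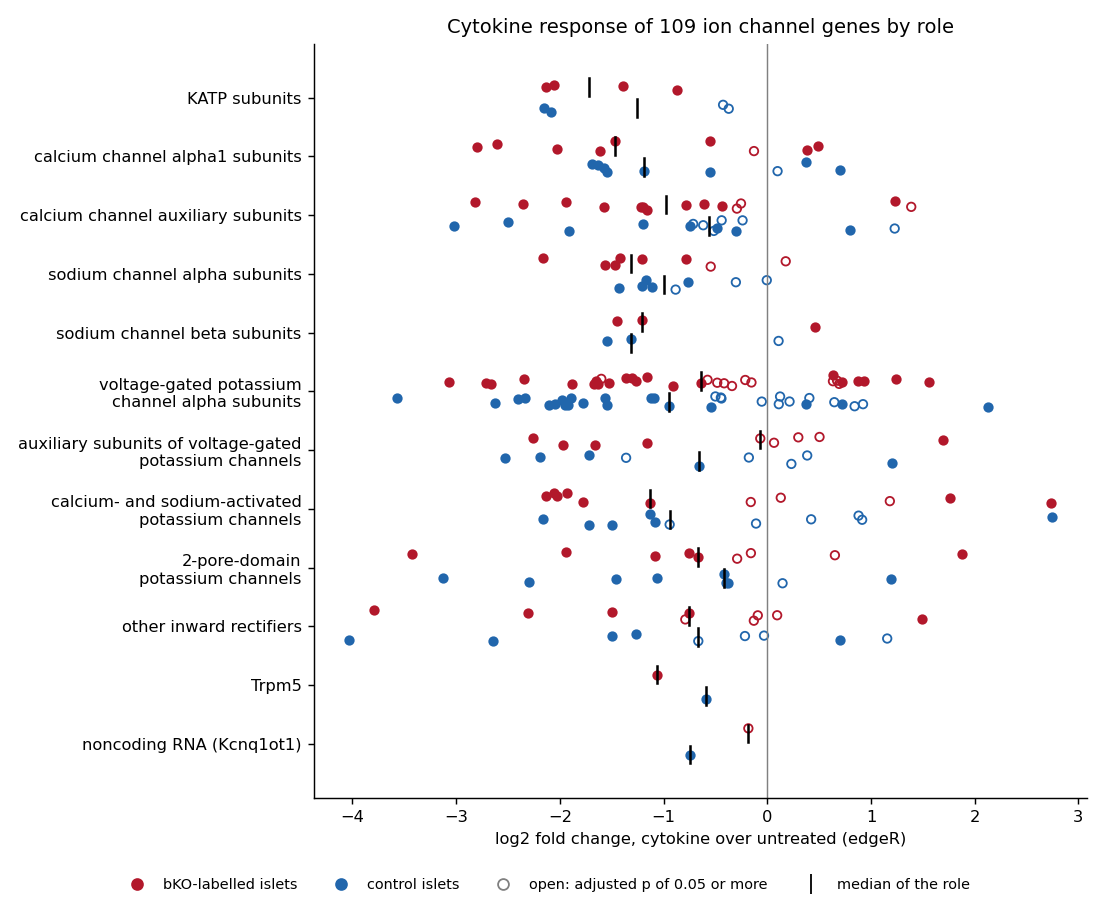
Log2 fold change with cytokines over untreated (edgeR) of each of the 109 channel genes by role, in bKO-labelled (upper row, red) and control islets (lower row, blue); filled points passed an adjusted p of 0.05, open points did not, and black ticks are role medians. Most filled points lie left of zero in every role with more than 1 gene, and Kcnmb1, at 2.73 and 2.75, is the farthest to the right.

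Markers of the islet's cell types moved with the same contrast, and in bulk RNA fewer cells of a type and less RNA per cell cannot be told apart. Of 10 beta-cell markers, 7 fell in each genotype, while the summed beta-cell markers, which are mostly insulin, ranged over 90100 to 163000 CPM with and 125000 to 136000 without cytokines in bKO-labelled islets, and over 145000 to 178000 and 125000 to 137000 CPM in controls. All 9 endothelial markers fell and all 8 macrophage markers rose in both genotypes. The summed endothelial markers were at 177 to 229 CPM with and 697 to 719 CPM without cytokines in bKO-labelled islets, and at 138 to 206 and 627 to 814 CPM in controls. The summed macrophage markers were at 561 to 731 and 180 to 244 CPM in bKO-labelled islets and at 522 to 616 and 184 to 222 CPM in controls. The summed alpha-cell and delta-cell markers were lower with cytokines in every library of both genotypes. Of 8 acinar markers tested, 6 fell in controls and 3 in bKO-labelled islets. Their sums were at 855 to 1390 CPM with and 4400 to 7100 CPM without cytokines in controls. In bKO-labelled islets they overlapped, at 738 to 2780 and 1960 to 3210 CPM. Of 6 ductal markers, 4 fell in controls and none passed the test in bKO-labelled islets. The part of these cell types in the channel results was not tested.

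All 4 KATP subunit genes fell in bKO-labelled islets (100% called), and the vascular pair fell in both genotypes. In controls, 2 of the 4 passed the test (50% called, under the share of all genes). Abcc8 (chr7:46104523-46180033, minus strand, GRCm38) stood at 384, 175 and 338 CPM in bKO-labelled islets with cytokines, against 734.5, 820.3 and 795 CPM without. In control islets it stood at 410, 627.5 and 527 CPM with and at 741, 715 and 646 CPM without cytokines. The treated libraries lay below the untreated in both genotypes, with the lowest value in bKO-labelled replicate 2. The log2 fold change was -1.39 ± 0.24 (SE; adjusted p = 0.000366) in bKO-labelled islets and -0.43 ± 0.24 in controls (adjusted p = 0.137). Every adjusted p is from edgeR's quasi-likelihood fit over all genes, by Benjamini-Hochberg, unless another tool is named. Without bKO-labelled replicate 2, the values were -1.06 (adjusted p = 0.000113) and -0.35 (adjusted p = 0.0408), so that Abcc8 then passed the test in controls too.

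Kcnj11, which lies next to Abcc8 (chr7:46093953-46100764, minus strand), was also lower with cytokines in every library. It stood at 72.2, 34.9 and 59.1 CPM in bKO-labelled islets with cytokines, against 96.0, 104.5 and 102.7 CPM without. Controls had 73.5, 91.8 and 81.2 CPM with and 115.5, 104.9 and 98.6 CPM without cytokines. Again no treated library reached an untreated one of its genotype. The log2 fold change was -0.87 ± 0.20 (adjusted p = 0.00259) in bKO-labelled and -0.37 ± 0.20 (adjusted p = 0.122) in control islets, and -0.56 (adjusted p = 0.00155) and -0.30 (adjusted p = 0.0266) without bKO-labelled replicate 2. With library totals alone, both genes also passed the test in controls.

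Kcnj8 and Abcc9 encode the pore and the receptor of the KATP channel of blood vessels, and are neighbours on chromosome 6. Kcnj8 stood at 2.28, 2.87 and 2.77 CPM in bKO-labelled islets with cytokines, against 12.2, 10.02 and 12.6 CPM without, and at 3.04, 1.59 and 3.05 against 8.71, 11.6 and 12 CPM in controls. Abcc9 averaged 3.63 ± 1.03 CPM with and 15.1 ± 0.59 CPM without cytokines in bKO-labelled islets, and 3.24 ± 0.61 and 14.4 ± 2.2 CPM in controls (SD, n = 3). The groups were separate for both genes. Kcnj8 fell by 2.13 ± 0.24 and 2.08 ± 0.24 on the log2 scale (SE; adjusted p = 1.23e-05 and 1.52e-05 in bKO-labelled and control islets), and Abcc9 fell by 2.05 ± 0.20 and 2.16 ± 0.20. These falls stand beside the falls of the endothelial markers given above. Of the 9 stellate and mural markers, the pericyte gene Rgs5 fell in both genotypes, by 0.87 and 1.03 on the log2 scale, while Dcn rose in both, by 2.44 and 1.75, and Pdgfra rose by 1.88 in bKO-labelled islets. The others, Acta2 and Myh11 among them, did not pass the test in either genotype. The part of these cells in the KATP results was not tested.

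Of the 9 calcium channel pores, 6 fell and 2 rose in each genotype (88.9% called), and the L-type pair of Cacna1c and Cacna1d moved apart. Cacna1d (chr14:30039939-30491455, minus strand) stood at 34.3, 23.9 and 32.6 CPM in bKO-labelled islets with cytokines, against 120.5, 129.1 and 121.4 CPM without. In controls it stood at 33.4, 41.7 and 42.5 CPM with and at 127, 120.3 and 118 CPM without cytokines. It fell by 2.03 ± 0.13 on the log2 scale (adjusted p = 1.68e-07) in bKO-labelled and by 1.64 ± 0.13 (adjusted p = 8.76e-07) in control islets, with no overlap of groups. Cacna1c (chr6:118587240-119196418, minus strand) stood at 117.7, 111.6 and 102.2 CPM in bKO-labelled islets with cytokines, against 88.0, 87.1 and 78.4 CPM without. Controls had 96.1, 109 and 119.5 CPM with and 89.4, 84.5 and 76.6 CPM without cytokines. All treated libraries lay above the untreated ones, and the log2 fold change was 0.39 ± 0.09 (adjusted p = 0.00367) and 0.37 ± 0.09 (adjusted p = 0.00476). With library totals alone, the rise of Cacna1c shrank to 0.16 (adjusted p = 0.18) and 0.15 (adjusted p = 0.207) and no longer passed the test.

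A share within a family does not depend on the scaling between libraries. Per exon length, Cacna1c made up 67.1%, 73.5% and 65.1% of the summed Cacna1c and Cacna1d RNA in bKO-labelled islets with cytokines, against 30.3%, 28.7% and 27.8% without. In controls it made up 63.1%, 60.9% and 62.6% with and 29.5%, 29.5% and 27.8% without cytokines. The majority L-type pore RNA was thus Cacna1c in each of the 6 treated libraries and Cacna1d in each of the 6 untreated ones. Of all 9 pores, Cacna1d made up 18.2% ± 2.5 with and 38.2% ± 1.9 without cytokines in bKO-labelled islets, and 21.4% ± 1.2 and 38.5% ± 1.6 in controls (SD, n = 3). With 3 libraries against 3, an exact two-sided permutation test cannot go below p = 0.1, and each of these shares gave that value.

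**Figure D3:**
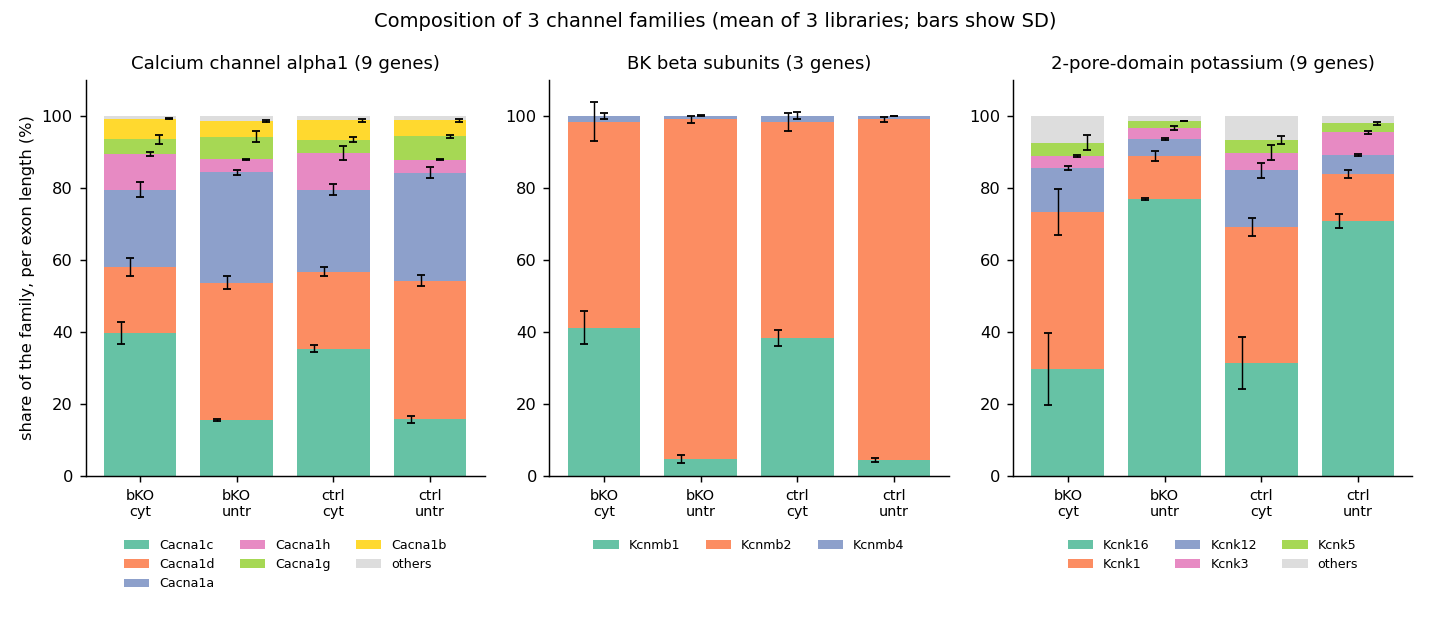
Shares of channel RNA per exon length (%, stacked means of 3 libraries, with the SD of each gene's own share drawn at its upper edge) in 3 families, for bKO-labelled and control islets with cytokines (cyt) and untreated (untr). Cacna1c, Kcnmb1 and Kcnk1 take a larger share with cytokines and Cacna1d, Kcnmb2 and Kcnk16 a smaller one, in both genotypes.

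The other calcium channel pores mostly fell. Cacna1a, the P/Q-type pore, stood at 32.3, 28.8 and 36.2 CPM in bKO-labelled islets with cytokines, against 94.4, 90.4 and 84.4 CPM without, and at 30.5, 40.0 and 43.3 against 81.7, 93.3 and 83.7 CPM in controls. It fell by 1.47 ± 0.13 and 1.18 ± 0.13 on the log2 scale (adjusted p = 1.62e-06 and 9.15e-06), with separate groups. The T-type pores went in both directions. Cacna1g fell by 1.61 and 1.55 and Cacna1i by 2.60 and 1.69 on the log2 scale in bKO-labelled and control islets, while Cacna1h rose by 0.49 ± 0.17 (adjusted p = 0.0232) and 0.70 ± 0.17 (adjusted p = 0.00316). In bKO-labelled islets, Cacna1h no longer passed the test with library totals alone (0.25, adjusted p = 0.221), without bKO-labelled untreated replicate 3 (adjusted p = 0.0901) or without bKO-labelled treated replicate 1 (adjusted p = 0.0739). Cacna1b, the N-type pore, fell by 0.55 in both genotypes, and Cacna1e, the R-type pore, did not pass the test in either (adjusted p = 0.91 and 0.931).

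Among the 14 auxiliary genes, 10 fell and 1 rose in bKO-labelled islets, and 7 fell and 1 rose in controls. These are 78.6% and 57.1% called, the second under the share of all genes. Cacnb3, the most abundant beta subunit, stood at 84.0, 60.2 and 87.7 CPM in bKO-labelled islets with cytokines, against 105.4, 106.4 and 101.2 CPM without. In controls it stood at 81.1, 86.0 and 82.8 CPM with and at 104, 101.4 and 102.9 CPM without cytokines. The fall was small in both, at -0.43 ± 0.11 (adjusted p = 0.00535) and -0.30 ± 0.11 (adjusted p = 0.0339), and in controls it failed the test under 10 of 21 alternative settings, among them DESeq2 (-0.21, adjusted p = 0.171). Cacnb2, another beta subunit, stood at 16.2, 10.1 and 15.3 CPM with and at 32.8, 31.6 and 30.7 CPM without cytokines in bKO-labelled islets, and at 15.2, 20.7 and 18.9 against 33.3, 29.9 and 28.9 CPM in controls. It fell by 1.20 ± 0.16 (adjusted p = 5.82e-05) and 0.75 ± 0.16 (adjusted p = 0.00171) on the log2 scale. Of the summed beta subunit RNA per length, Cacnb3 held 84.8% ± 0.53 with and 81.0% ± 1.6 without cytokines in bKO-labelled islets, and 82.4% ± 1.2 and 81.2% ± 0.96 in controls.

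Cacna2d1, an alpha2delta subunit that helps bring the pore to the membrane, was the most abundant of its kind. It stood at 56.0, 56.3 and 54.7 CPM in bKO-labelled islets with cytokines, against 107, 139.5 and 141.4 CPM without, and at 58.8, 57.1 and 63.6 against 149.7, 131.8 and 130.3 CPM in controls. It fell by 1.22 ± 0.10 and 1.20 ± 0.10 on the log2 scale (adjusted p = 1.42e-06 and 1.75e-06), again without overlap. Cacna2d2 fell by 2.82 and 3.02 and Cacng4, a gamma subunit, by 2.35 and 2.5. Cacng7, another gamma subunit, was the auxiliary gene that rose, at 17.2, 36.3 and 17.0 CPM in bKO-labelled islets with cytokines, against 11.6, 8.99 and 9.47 CPM without. In controls it stood at 20.3, 10.9 and 17.3 against 7.58, 9.86 and 10.5 CPM. The log2 fold change was 1.23 ± 0.30 (adjusted p = 0.00386) in bKO-labelled islets, of which 0.83 (adjusted p = 0.00447) remained without replicate 2, and 0.79 ± 0.30 (adjusted p = 0.0379) in controls, where 10 of 21 alternative settings lost the call.

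No sodium channel alpha subunit rose: 6 of 8 fell in bKO-labelled and 5 of 8 in control islets (75% and 62.5% called). Scn9a, an alpha subunit of mouse beta cells and of sensory neurons, stood at 19.6, 16.7 and 25.9 CPM in bKO-labelled islets with cytokines, against 50.3, 65.7 and 67.5 CPM without. Controls had 18.1, 17.7 and 31.0 CPM with and 67.0, 55.9 and 56.0 CPM without cytokines. Scn3a stood at 20.7, 12.7 and 17.7 CPM with and at 44.4, 47.0 and 45.2 CPM without cytokines in bKO-labelled islets, and at 14.8, 20.2 and 13.9 against 36.6, 40.5 and 36.2 CPM in controls. The groups were separate for both genes, and the log2 fold changes were -1.56 ± 0.23 and -1.43 ± 0.22 for Scn9a (adjusted p = 9.83e-05 and 0.000197) and -1.42 ± 0.17 and -1.21 ± 0.17 for Scn3a (adjusted p = 2.45e-05 and 8.86e-05), in bKO-labelled and control islets. Scn8a fell less, by 0.78 ± 0.10 and 0.77 ± 0.10 (adjusted p = 3.14e-05 and 3.78e-05), at 15.6, 17.8 and 15.5 CPM with and 27.7, 29.0 and 27.5 CPM without cytokines in bKO-labelled islets, and 14.3, 16.8 and 16.9 against 27.9, 29.6 and 24.2 CPM in controls. Its share of the alpha subunit RNA per length was 24.5% ± 5.0 with and 16.3% ± 1.1 without cytokines in bKO-labelled islets and 23.4% ± 1.3 and 17.3% ± 1.2 in controls.

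Of the 3 beta subunits, which modulate gating of the sodium channel pore, 2 fell in each genotype, and the other is not reported here. Scn3b stood at 2.47, 2.27 and 2.15 CPM in bKO-labelled islets with cytokines, against 6.15, 6.30 and 6.31 CPM without, and at 1.91, 2.35 and 2.65 against 6.83, 7.53 and 5.82 CPM in controls. The groups were separate, and it fell by 1.45 (adjusted p = 6.24e-06) and 1.55 (adjusted p = 3.79e-06) on the log2 scale. Scn2b fell by 1.21 and 1.31.

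Of the 31 voltage-gated potassium channel alpha subunits, 15 fell and 6 rose in bKO-labelled islets, and 17 fell and 3 rose in controls (67.7% and 64.5% called). Kcnh6, an ERG-type channel, had the lowest log2 fold change of them in bKO-labelled islets. It stood at 10.6, 6.41 and 11.2 CPM in bKO-labelled islets with cytokines, against 76.7, 81.2 and 79.2 CPM without, and at 11.9, 17.8 and 13.4 against 72.4, 77.8 and 67.9 CPM in controls. All treated libraries were far below all untreated ones, and it fell by 3.07 ± 0.20 (adjusted p = 1.95e-07) and 2.34 ± 0.19 (adjusted p = 1.33e-06) on the log2 scale. Its relative Kcnh2 fell by 1.30 ± 0.22 (adjusted p = 0.00028) and 1.09 ± 0.22 (adjusted p = 0.000977), at 49.6, 22.6 and 45.1 CPM with and 101, 97.8 and 90.4 CPM without cytokines in bKO-labelled islets and 44.2, 52.0 and 51.0 against 109, 102 and 103 CPM in controls. Of the alpha subunit RNA per length, Kcnh6 held 9.20% ± 1.3 with and 28.6% ± 1.6 without cytokines in bKO-labelled islets, and 12.3% ± 2.1 and 26.7% ± 1.2 in controls, while Kcnh2 held 27.6% ± 6.6 and 25.5% ± 0.39, and 30.9% ± 0.59 and 28.2% ± 1.1.

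Kcnd1, an A-type channel, and Kcnh3, of the ELK type, also fell in both genotypes. Kcnd1 fell by 1.64 (adjusted p = 1.11e-06) in bKO-labelled and 1.54 (adjusted p = 1.74e-06) in control islets on the log2 scale, and Kcnh3 fell by 1.36 (adjusted p = 5.6e-06) and 1.89 (adjusted p = 4.88e-07).

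The raised alpha subunits were scarce. Kcna1 was at 1.73 ± 0.25 CPM with and 1.05 ± 0.25 CPM without cytokines in bKO-labelled islets, and at 1.72 ± 0.55 and 1.04 ± 0.07 CPM in controls, with a log2 fold change of 0.72 in both (adjusted p = 0.0236 and 0.0238); 4 of 21 alternative settings lost the call in bKO-labelled and 6 in control islets. Kcnh4, below 0.64 CPM in every library, had a log2 fold change of 1.24 ± 0.41 (adjusted p = 0.0205) and 2.12 ± 0.42 (adjusted p = 0.00101). In bKO-labelled islets, 4 of 20 alternative settings lost its call, and in controls 0 did. Kcna3, a channel best known from T cells and macrophages, rose by 1.56 ± 0.39 (adjusted p = 0.00422) in bKO-labelled islets and had a log2 fold change of 0.84 (adjusted p = 0.0757) in controls. Without bKO-labelled treated replicate 2, Kcna3 passed the test in controls too (0.91, adjusted p = 0.0288). The macrophage markers given above rose, and so did Lck, the T-cell marker that could be tested, by 1.57 and 1.36; the summed T-cell markers were at 8.52 to 15.8 CPM with and 4.1 to 4.8 CPM without cytokines in bKO-labelled islets, and their part was not tested. Kcnh1 was the abundant exception: it stood at 43.0, 28.9 and 38.6 CPM in bKO-labelled islets with cytokines against 41.7, 43.5 and 37.5 CPM without, which overlapped, and at 36.3, 39.0 and 36.6 against 28.2, 28.1 and 29.9 CPM in controls. In controls it rose by 0.38 ± 0.12 (adjusted p = 0.0183; 0.15 with adjusted p = 0.259 under library totals alone).

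The auxiliary subunits of the voltage-gated potassium channels held 4 lowered genes and 1 raised gene in each genotype. This is 55.6% called, under the share of all genes in both. Kcnab3 fell by 2.26 and 1.72, Kcnip2 by 1.97 and 2.53, Kcnip3 by 1.66 and 2.19 and Kcnip4 by 1.16 and 0.66 on the log2 scale in bKO-labelled and control islets. Kcne4 rose, at 8.63, 12.1 and 9.99 CPM with and 3.44, 2.99 and 3.03 CPM without cytokines in bKO-labelled islets, and at 9.47, 4.58 and 7.44 against 2.68, 3.52 and 3.10 CPM in controls. The groups were separate, with log2 fold changes of 1.70 ± 0.24 (adjusted p = 7.1e-05) and 1.20 ± 0.23 (adjusted p = 0.000892). Kcne3, a partner of Kcnq1 in epithelia, was at 24.7 CPM in bKO-labelled treated replicate 2 and at 2.16 and 3.82 CPM in replicates 1 and 3, against 8.18, 6.16 and 7.40 CPM without cytokines. Its log2 fold change turned from 0.50 (adjusted p = 0.575) to -1.21 (adjusted p = 0.0496) when replicate 2 was left out. Kcnq1 itself behaved likewise, at -0.21 (adjusted p = 0.693) with and -1.04 (adjusted p = 0.00558) without that library. The summed ductal markers ranged over 1380 to 5520 CPM in the bKO-labelled treated libraries, against 1770 to 2340 CPM in the bKO-labelled untreated ones, and their part in this was not tested.

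Of the 11 calcium- and sodium-activated potassium channel genes, 6 fell and 2 rose in bKO-labelled and 5 fell and 1 rose in control islets. These are 72.7% and 54.5% called, the second under the share of all genes. Kcnma1, the pore of the large-conductance BK channel (chr14:23289431-24014491, minus strand), stood at 25.2, 17.6 and 22.6 CPM in bKO-labelled islets with cytokines, against 71.0, 75.5 and 77.1 CPM without, and at 24.4, 27.8 and 25.8 against 83.4, 68.4 and 69.2 CPM in controls. It fell by 1.78 ± 0.13 (adjusted p = 3.48e-07) and 1.5 ± 0.12 (adjusted p = 1.31e-06) on the log2 scale. Kcnmb1, a BK beta subunit best known from smooth muscle (chr11:33963013-33973641, plus strand), stood at 21.6, 18.5 and 24.5 CPM in bKO-labelled islets with cytokines, against 3.76, 2.95 and 3.00 CPM without. In controls it stood at 17.8, 22.3 and 23.3 CPM with and at 3.13, 3.27 and 3.03 CPM without cytokines. The lowest treated library was several times above the highest untreated one. It rose 6.64-fold in bKO-labelled and 6.72-fold in control islets (log2 fold change 2.73 ± 0.15 and 2.75 ± 0.15, adjusted p = 4.37e-08 and 4.23e-08), and it had the smallest p of all 109 genes in both.

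The prevailing BK beta subunit, Kcnmb2, stood at 27.7, 15.8 and 24.9 CPM with and at 43.9, 51.8 and 54.1 CPM without cytokines in bKO-labelled islets, and at 23.2, 24.8 and 25.7 against 59.9, 47.0 and 49.5 CPM in controls, and fell by 1.13 ± 0.18 (adjusted p = 0.000175) and 1.09 ± 0.18 (adjusted p = 0.000243). Per length, Kcnmb1 made up 36.5%, 45.5% and 41.6% of the BK beta subunit RNA in bKO-labelled islets with cytokines, against 5.97%, 4.02% and 3.94% without. The shares in controls were 35.8%, 39.8% and 39.2% with and 3.72%, 4.88% and 4.33% without cytokines. They were separate in both genotypes (exact two-sided permutation p = 0.1, the smallest possible with 3 against 3). Of the 9 stellate and mural markers given above, Dcn and Pdgfra rose and Rgs5 fell in bKO-labelled islets, and Dcn rose and Rgs5 fell in controls. The summed stellate and mural markers were at 1850 to 4900 CPM with and 1390 to 1840 CPM without cytokines in bKO-labelled islets, but overlapped in controls, at 947 to 2580 and 1230 to 1560 CPM. Their part in the rise of Kcnmb1 was not tested.

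The small-conductance channel Kcnn3 stood at 7.55, 10.2 and 6.95 CPM with and at 35.8, 33.5 and 31.7 CPM without cytokines in bKO-labelled islets, and at 9.44, 7.59 and 8.30 against 43.2, 34.6 and 35.2 CPM in controls. It fell by 2.03 ± 0.15 (adjusted p = 4.89e-07) and 2.16 ± 0.15 (adjusted p = 3.31e-07), and Kcnn2 fell by 1.93 and 1.13. Kcnn4, the intermediate-conductance channel of blood and epithelial cells, went the other way, at 17.9, 71.0 and 22.1 CPM with and 12.1, 10.2 and 10.4 CPM without cytokines in bKO-labelled islets, and 23.1, 10.6 and 25.8 against 8.47, 11.2 and 12.5 CPM in controls. Its bKO-labelled groups were separate, with replicate 2 the highest, and its control groups overlapped. The log2 fold change was 1.77 ± 0.47 (adjusted p = 0.00666) and 0.88 ± 0.47 (adjusted p = 0.121), and 0.93 (adjusted p = 0.0121) and 0.94 (adjusted p = 0.00639) without that replicate.

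Kcnk16 and Abcc8 had the largest differences in mean CPM of all channel genes in both genotypes. Kcnk16 (chr14:20261376-20269199, minus strand) stood at 34.4, 17.5 and 30.6 CPM in bKO-labelled islets with cytokines, against 319.6, 292.3 and 273 CPM without. In controls it stood at 21.8, 31.1 and 21.7 CPM with and at 227.4, 224.5 and 200.6 CPM without cytokines. Every treated library was far below every untreated one. The fall was 10.7-fold in bKO-labelled and 8.72-fold in control islets (log2 fold change -3.42 ± 0.23 and -3.12 ± 0.23, adjusted p = 2.36e-07 and 4.81e-07). Among the 9 genes of the 2-pore-domain family, 5 fell in bKO-labelled and 6 in control islets. Kcnk10 rose in both, by 1.87 ± 0.33 (adjusted p = 0.000405) and 1.19 ± 0.32 (adjusted p = 0.00742), which makes 66.7% and 77.8% called. Kcnk3, an acid-sensitive member, stood at 4.63, 5.54 and 5.01 CPM with and at 23.4, 20.6 and 14.4 CPM without cytokines in bKO-labelled islets, and at 10.3, 4.63 and 5.12 against 34.1, 30.9 and 33.0 CPM in controls. It fell by 1.94 ± 0.27 (adjusted p = 8e-05) and 2.29 ± 0.27 (adjusted p = 2.24e-05). Kcnk16 made up 29.7% ± 10.0 of the family's RNA per length with and 76.9% ± 0.37 without cytokines in bKO-labelled islets, and 31.3% ± 7.3 and 70.7% ± 2.0 in controls. Kcnk1 stood at 32.2, 44.8 and 37.3 CPM with and 41.3, 42.2 and 44.0 CPM without cytokines in bKO-labelled islets, and at 28.3, 26.4 and 30.2 against 37.4, 36.6 and 39.4 CPM in controls. It fell by 0.42 ± 0.11 (adjusted p = 0.00477) in controls, and its log2 fold change in bKO-labelled islets was -0.16 (adjusted p = 0.209), or -0.23 (adjusted p = 0.0178) without treated replicate 2. Its share of the family was 43.5% ± 6.4 with and 11.9% ± 1.3 without cytokines in bKO-labelled islets, and 37.8% ± 2.4 and 13.1% ± 1.0 in controls. Kcnk16 still held more than Kcnk1 in bKO-labelled treated replicate 1 (37.9% and 37.7%) and in control treated replicate 2 (39.7% and 35.8%).

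Kcnk16 and Kcnmb1 mark the ends of the response among well-expressed members, so the 250 bases before the start of each are shown, from RefSeq on GRCm38.p6, each written 5′ to 3′ on the strand of its gene. They were searched on both strands for TTCNNNGAA, the palindrome bound by STAT factors, for 2 runs of GAAA that are 2 bases apart, an interferon-response motif, for CATCTG, an E-box, and for TAATTA, a homeodomain core, and capitals mark a match. These motifs do not contain one another, and the windows are chr14:20269270-20269519 (minus strand) for Kcnk16 and chr11:33962763-33963012 (plus strand) for Kcnmb1.
Kcnk16: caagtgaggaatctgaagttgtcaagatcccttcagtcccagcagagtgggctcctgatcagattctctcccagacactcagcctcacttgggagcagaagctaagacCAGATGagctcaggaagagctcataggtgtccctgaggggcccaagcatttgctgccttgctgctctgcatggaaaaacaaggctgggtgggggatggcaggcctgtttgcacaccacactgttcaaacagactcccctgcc
Kcnmb1: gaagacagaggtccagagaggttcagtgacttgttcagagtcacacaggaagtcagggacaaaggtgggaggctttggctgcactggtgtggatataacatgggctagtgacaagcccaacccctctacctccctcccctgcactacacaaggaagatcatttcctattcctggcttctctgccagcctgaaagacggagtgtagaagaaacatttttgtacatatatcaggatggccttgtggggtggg
The Kcnk16 window holds 1 CATCTG on the other strand, and these letters of the 4 motifs are not in the Kcnmb1 window. Of the 109 genes, 80 were matched in the promoter table. A gene counted if any of its promoters held the motif in that length. TTCNNNGAA was in 9 of the 80 (11.2%) and in 8.13% of all 27025 genes of that table. CATCTG was in 13 (16.2%) and in 16.3% of all. The paired GAAA was in 2 (2.5%) and in 3.46%, and TAATTA in none and in 5.65%. A match is a description of letters and not a bound site.

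**Figure D4:**
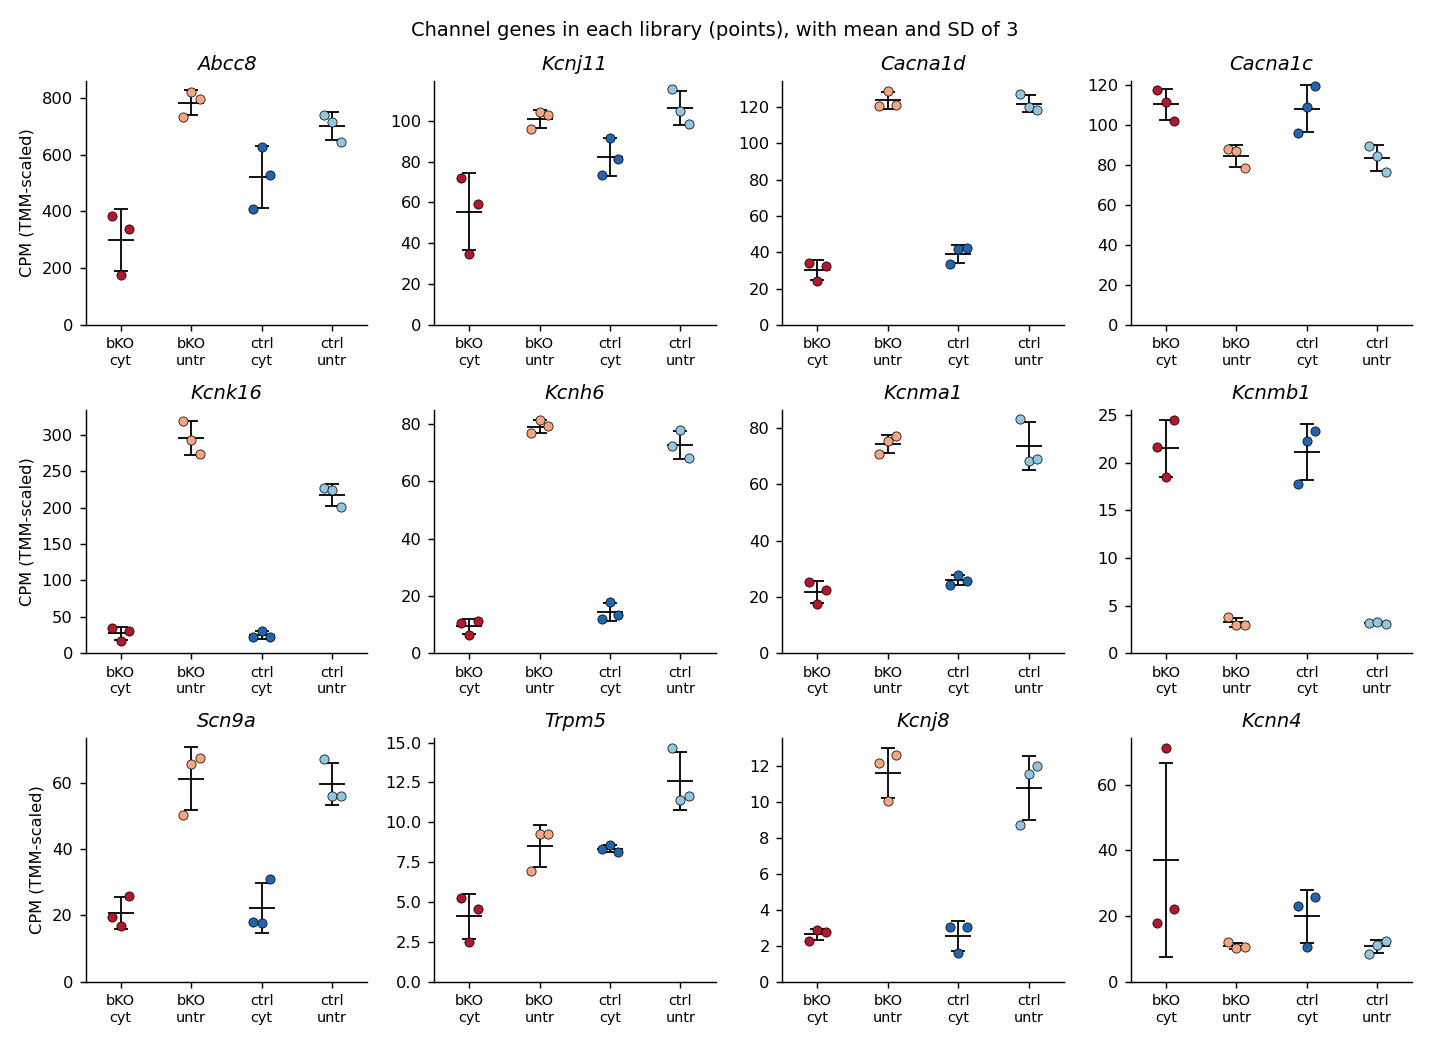
CPM of 12 channel genes in each library (points) with the mean and SD of 3, for bKO-labelled and control islets with cytokines (cyt) and untreated (untr). Kcnmb1 and Cacna1c lie higher with cytokines in all 6 treated libraries, Kcnk16, Kcnh6, Cacna1d and Kcnma1 lie lower, and Abcc8, Kcnj11 and Kcnn4 vary most within the bKO-labelled treated group, where replicate 2 is the extreme point.

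Of the 9 other inward rectifiers, 4 fell and 1 rose in each genotype (55.6% called, under the share of all genes). Kcnj2, a strong inward rectifier, stood at 1.74, 2.69 and 3.49 CPM with and at 13.6, 12.5 and 13.2 CPM without cytokines in bKO-labelled islets, and at 2.65, 1.77 and 2.41 against 10.9, 16.2 and 15.3 CPM in controls. It fell by 2.31 ± 0.24 (adjusted p = 7.53e-06) and 2.64 ± 0.24 (adjusted p = 2.99e-06). Kcnj3, a subunit of G-protein-gated channels, had the lowest log2 fold changes of all members, -3.79 ± 0.32 (adjusted p = 1.39e-06) and -4.03 ± 0.30 (adjusted p = 5.79e-07), from a level of at most 3.96 CPM in any library. An antisense gene covers 31.1% of its exons, and the sources used here do not say whether counting used strand, so its reads cannot be assigned with certainty. Kcnj6, another subunit of these channels, rose by 0.70 ± 0.18 (adjusted p = 0.00479) in controls, at 12, 14.7 and 13.7 CPM with and 8.52, 7.53 and 8.75 CPM without cytokines. In bKO-labelled islets it overlapped, at 12.3, 6.80 and 9.05 against 10.8, 10.6 and 9.41 CPM (adjusted p = 0.544).

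Trpm5, a calcium-activated monovalent cation channel of the beta cell, stood at 5.22, 2.51 and 4.56 CPM in bKO-labelled islets with cytokines, against 6.96, 9.28 and 9.27 CPM without, and at 8.31, 8.59 and 8.12 against 14.7, 11.4 and 11.7 CPM in controls. The treated libraries were below the untreated in both genotypes, and it fell by 1.06 ± 0.23 (adjusted p = 0.0017) and 0.59 ± 0.22 (adjusted p = 0.0354), the second of which failed the test under 9 of 21 alternative settings. Kcnq1ot1, the imprinted noncoding RNA that runs antisense to Kcnq1, fell by 0.75 ± 0.20 (adjusted p = 0.0078) in controls and had a log2 fold change of -0.18 (adjusted p = 0.454) in bKO-labelled islets. It lies within the Kcnq1 gene, on the other strand. As the strand setting of the counting is not given, its reads cannot be assigned with certainty.

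The genotypes were compared directly within each treatment. No channel gene passed the test with cytokines, where 0.232% of all genes did (0.141% higher and 0.0909% lower in bKO-labelled islets), and 20 of 109 (18.3%) had an unadjusted p under 0.05, beside 17.8% of all genes. DESeq2 called 3 higher and 3 lower (2.75% each), where it called 1.42% of all genes higher and 1.91% lower, and limma-voom called none. The smallest p belonged to Kcnn2, at 0.52, 0.51 and 0.45 CPM in bKO-labelled and 0.83, 0.88 and 1.14 CPM in control islets (log2 difference -0.94 ± 0.20, adjusted p = 0.0753). Trpm5 followed at -1.03 ± 0.23 (adjusted p = 0.0826), Kcns3, a silent potassium channel subunit, at 1.05 ± 0.24 (adjusted p = 0.0869) and Kcnk1 at 0.43 ± 0.11 (adjusted p = 0.103). Each had separate groups, as did Abcc8 (-0.80 ± 0.24, adjusted p = 0.155) and Kcnj11 (-0.57 ± 0.20, adjusted p = 0.197). Without bKO-labelled treated replicate 2, the difference was -0.55 (adjusted p = 0.172) for Abcc8 and -0.34 (adjusted p = 0.283) for Kcnj11. DESeq2 called Kcnn2, Trpm5, Kcns3, Kcnk1, Abcc8 and Kcnq1. Kcnq1 had an edgeR difference of 1.47 (adjusted p = 0.167), and of 0.57 (adjusted p = 0.442) without that replicate. Without treated replicate 1 in its place, edgeR called Kcnk1, Trpm5, Kcnj6 and Kcnq1, together with 0.939% of all genes higher and 1.24% lower.

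**Figure D5:**
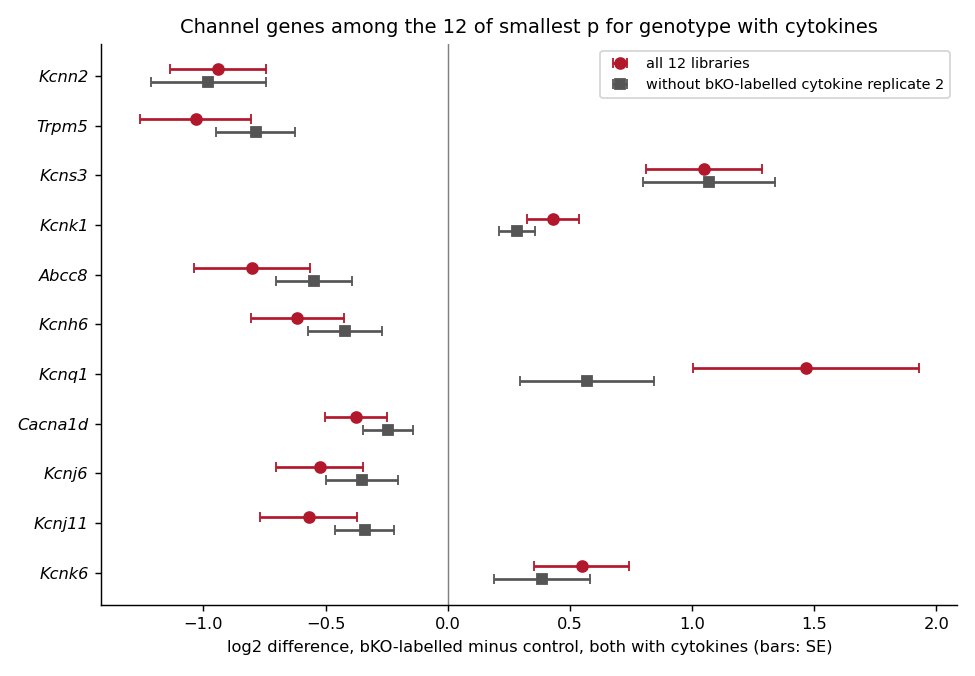
Log2 difference, bKO-labelled minus control, both with cytokines (edgeR, bars are SE), for channel genes among the 12 of smallest p, with all 12 libraries (red) and without bKO-labelled treated replicate 2 (grey). No gene passed an adjusted p of 0.05 with all libraries, and Kcnq1 moved most when the replicate was left out.

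Without cytokines, no channel gene passed the test between genotypes either (0.0758% of all genes did), and 10 (9.17%) had an unadjusted p under 0.05, beside 5.55% of all genes. DESeq2 called 1 lower (0.917%), beside 0.182% of all genes, and limma-voom called none. Kcnh1 had the smallest p, at 41.7, 43.5 and 37.5 CPM in bKO-labelled and 28.2, 28.1 and 29.9 CPM in control islets (log2 difference 0.51 ± 0.12, adjusted p = 0.284), without overlap, and it passed the test when bKO-labelled treated replicate 2 was left out of the fit (adjusted p = 0.0172). Scn4a was at 1.24 ± 0.37 (adjusted p = 0.494) and Kcnip2 at -0.86 ± 0.29 (adjusted p = 0.647). Kcnk16 averaged 295 ± 23.4 CPM in bKO-labelled and 218 ± 14.7 CPM in control islets (log2 difference 0.44 ± 0.21, adjusted p = 0.927), and passed the test only in the fit restricted to the untreated libraries (adjusted p = 0.0422). The summed acinar markers did not overlap between these untreated groups, at 1960 to 3210 CPM in bKO-labelled and 4400 to 7100 CPM in control islets. No acinar marker passed the test there, and their part was not tested.

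The difference between the cytokine responses, bKO-labelled minus control, passed the test for no channel gene and for 0% of all genes. An unadjusted p under 0.05 was found in 16 of 109 genes (14.7%), beside 10.9% of all. Neither DESeq2 nor limma-voom called a channel gene. Of all genes, DESeq2 called 0.485% higher and 0.389% lower, and limma-voom called none. The smallest p was that of Kcnj6 (-0.83 ± 0.25, adjusted p = 0.341), then Kcnh1 (-0.53 ± 0.17, adjusted p = 0.364), Kcnn2 (-0.79 ± 0.26, adjusted p = 0.366) and Abcc8 (-0.96 ± 0.33, adjusted p = 0.386). The larger fall of Abcc8 in bKO-labelled islets was thus not shown to differ from that in controls.

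Other genes of stimulus and secretion were described from lists of related roles, beside the 62.4% of all genes called in bKO-labelled and 60.6% in control islets. Of 21 genes of calcium-triggered exocytosis, 13 fell and 1 rose in bKO-labelled islets, and 11 fell and 4 rose in controls (66.7% and 71.4% called; median log2 fold change -0.54 and -0.33). Rab3a, a vesicle GTPase, fell by 2.14 ± 0.13 and 1.62 ± 0.12 on the log2 scale, Rab27a by 2.02 and 1.66, and Cplx2, which clamps vesicle fusion, by 1.48 and 1.62, while Cadps2 rose in both, by 0.39 and 0.51, and Stx1a rose by 0.58 in controls. Of 9 genes of glucose entry and metabolism, 5 fell and 2 rose in bKO-labelled islets and 4 fell and 1 rose in controls (77.8% and 55.6% called). G6pc2 fell by 3.07 and 2.17, Gpd2 by 1.10 and 1.24 and Pcx by 1.25 and 1.11, while Mpc1, of the mitochondrial pyruvate carrier, rose by 0.98 and 1.07. G6pc2 was also called lower between genotypes with cytokines, at 124, 80.8 and 121.5 CPM in bKO-labelled and 257, 219 and 213 CPM in control islets (log2 difference -1.08 ± 0.17, adjusted p = 0.0334). It is 1 of 2 beta-cell markers so called of 10, with Ucn3 (-1.22 ± 0.19, adjusted p = 0.0334), and the part of this in the KATP differences between genotypes was not tested.

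Of 18 genes that regulate calcium channels, 8 fell and 6 rose in bKO-labelled islets and 9 fell and 4 rose in controls (77.8% and 72.2% called). Rimbp2, a scaffold that binds calcium channels, fell by 3.09 and 2.37, and Gem, a GTPase that inhibits them, rose by 1.45 and 1.97. The 21 tested genes of calcium stores, pumps and store-operated entry split into 9 lowered and 6 raised in bKO-labelled and 10 lowered and 7 raised in control islets (71.4% and 81% called). The sensor Stim1 fell by 0.98 and 0.80, and the store-operated channel Orai2 rose by 1.62 and 1.83. Of 29 TRP, cyclic-nucleotide-gated and other cation channels, 14 fell and 6 rose in bKO-labelled and 13 fell and 5 rose in control islets (69% and 62.1% called). Nalcn, the sodium leak channel, fell by 2.94 ± 0.13 and 2.72 ± 0.12, and Hvcn1, a proton channel of immune cells, rose by 3.19 and 2.97, beside the rise of the macrophage markers.

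Of 23 tested chloride channel and transporter genes, 8 rose and 5 fell in bKO-labelled and 6 rose and 6 fell in control islets (56.5% and 52.2% called, under the share of all genes), with Best3 lowered by 2.59 and 2.02, Clcn3 lowered by 0.94 and 0.68, and Clcn7 raised by 0.78 and 0.91. Of 11 sodium-potassium pump genes, 4 fell and 2 rose in bKO-labelled and 6 fell and 1 rose in control islets (54.5% and 63.6% called). Atp1b2, a beta subunit of the pump, fell by 1.57 and 1.46. No gene of these lists passed the test for a difference between the genotypes' responses.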

How the data were processed

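The 12 libraries were made from total islet RNA and read on a NovaSeq. The authors deposited raw read counts per gene as whole numbers, which were used as they are. Per the submitters' processing notes, cutadapt 1.16, STAR 2.5.2a, featureCounts 1.6.2 and GRCm38 were used. The sources used here name neither the annotation release nor the strand setting of the counting. Groups came from the sample titles.

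Of all genes, 19800 passed filterByExpr and were fitted in 1 model over all 12 libraries, with a coefficient for each of 4 groups (edgeR 4.0.16 quasi-likelihood test, TMM scaling, R 4.3.3, Benjamini-Hochberg over all genes at 0.05); all 109 channel genes passed the filter. Of 5 comparisons, 2 set cytokine-treated against untreated islets of a genotype, 2 set bKO-labelled against control islets under a treatment, and 1 tested whether the cytokine response differed by genotype. Named genes were a core of each role plus, within each role and comparison, up to 4 members per direction of smallest adjusted p. SE is the log2 fold change divided by the root of the F statistic. DESeq2 1.42.0 and voom of limma 3.58.1, other scalings and filters, and leaving out each library were tried as alternatives. Positions and exon lengths are from GENCODE M21, which held all 109. Some genes are not reported here by name; they stay in the fits and counts. The fit was run on simulated counts in which few genes were altered, which does not test the scaling where most genes move. Libraries of a group differed by a chi-square per degree of freedom of 15 to 213, over genes with at least 20 counts, so none is a copy. The members, lists and alternatives were chosen with earlier results of these data known.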

Additional observations from a re-analysis of the deposited data

How the results depend on the processing

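The number of channel genes raised was the least stable count. In bKO-labelled islets, 15 rose, 8 with library totals alone and 8 at an adjusted p under 0.01, and 9 to 16 when 1 library was left out (9 without untreated bKO-labelled replicate 3, when Cacna1h, Kcna1, Kcnh4 and 4 others lost the call); 59 to 64 fell. In controls, 10 rose, 6 with library totals alone, 16 with DESeq2, and 7 to 16 when 1 library was left out (16 without treated bKO-labelled replicate 2, 7 without untreated control replicate 2); 56 to 64 fell. The share of all genes raised moved as well. In bKO-labelled islets it was 28.8% in the main fit, 20.2% with library totals alone and 22.6% at an adjusted p under 0.01. Without untreated bKO-labelled replicate 3 it was 25.6%. In controls it was 26.8%, with 18.9% under library totals alone and 31.1% under DESeq2. Without treated bKO-labelled replicate 2 it was 31.5%, and without untreated control replicate 2 it was 23.6%. Of the 8 genes raised in both genotypes, Kcnmb1, Kcnk10, Kcne4 and Kcnh4 were still called in both with library totals alone. Between genotypes with cytokines, 0 genes were called, but 1 lower without a filter on low counts (Trpm5), 3 higher and 3 lower with DESeq2, and 0 to 2 in each direction when 1 library was left out, with 2 and 2 without treated bKO-labelled replicate 1. The fit without that filter called 0.181% of all genes higher and 0.365% lower. Without cytokines, 1 was called lower with DESeq2, 3 higher in the fit of the compared groups alone (Kcnk16, Cacna2d4 and Kcnh1), and 0 to 1 higher when 1 library was left out. The fit of the compared groups alone called 0.482% of all genes higher and 0.159% lower. No setting gave a channel gene a call for the difference in response. Summed channel levels moved to 3147 CPM in untreated bKO-labelled and 2929 CPM in untreated control islets with library totals alone, from 2888 and 2725 CPM. The treated sums went the other way, to 1240 CPM in bKO-labelled and 1492 CPM in control islets, from 1338 and 1625 CPM. The fall with cytokines was thus larger with library totals alone. The causes were not tested.

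Deviations from the group means were correlated between same-numbered treated and untreated libraries of a genotype, at -0.18 to 0.098. With groups of 3 libraries, such values cannot tell whether libraries of the same number share a mouse. With a replicate block, 13 channel genes rose and 62 fell in bKO-labelled and 8 rose and 57 fell in control islets, and 0 were called in the other comparisons. Of all genes, 26.7% then rose and 32.1% fell in bKO-labelled islets, and 25.2% rose and 32.1% fell in controls. Depth limits the rarest members, such as Kcnh4 and Kcnj14, which were below 1 CPM on average in every group.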
